A study of Mus musculus with 12 samples.

Results

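The arginine and nitric oxide metabolism genes examined here were Slc7a2, Arg1, Arg2, Nos2, Ass1, Asl, Odc1, Srm and Sat1. They are 9 of the 24346 gene symbols listed for every library and were chosen by name, with earlier results of these data known. All 9 had a row in each of the 12 libraries. RNA-seq was performed on myeloid-derived suppressor cells (MDSCs) sorted from Hepa 1-6 tumors, a mouse hepatoma line grown in the liver of wild-type C57BL/6J mice (female, 6 to 8 weeks old). The monocytic subset (M-MDSCs) was gated as CD11b+, high in Ly-6C and negative for Ly-6G, and the polymorphonuclear subset (PMN-MDSCs) as CD11b+, intermediate in Ly-6C and positive for Ly-6G. Each subset was taken from vehicle-treated mice, from mice given MS-275 and from mice given CXD101, with 2 libraries in each of the 6 groups. Both agents inhibit the histone deacetylases HDAC1-3, and by the study's methods each was injected at 5 mg/kg daily for 10 days from day 10 after tumor inoculation, with collection on day 21. Those methods describe RNA-seq for the M-MDSC libraries alone, so the dose and schedule of the PMN-MDSC libraries are taken to be the same.

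Arginine enters myeloid cells through cationic amino acid transporters such as Slc7a2. Arginases (Arg1 in the cytosol, Arg2 in mitochondria) split it into urea and ornithine, whereas the inducible nitric oxide synthase Nos2 turns it into nitric oxide and citrulline. Ass1 and Asl convert citrulline back to arginine in 2 successive steps. Ornithine decarboxylase, encoded by Odc1, makes putrescine from ornithine, the spermidine synthase Srm extends putrescine to spermidine, and the acetyltransferase Sat1 marks spermidine and spermine for export or oxidation. Depletion of arginine by arginases and production of nitric oxide are textbook means by which MDSCs restrain T cells.

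Levels are given in the FPKM that the authors deposited, which are fragment numbers divided by transcript length and library size. Differences are given as log2 fold changes on the log2(FPKM + 1) scale with their standard error (SE), from limma fitted to all genes tested, and calling a gene required more than a 1.5-fold difference (0.58 on the log2 scale) with p below 0.05 after Benjamini-Hochberg adjustment. Nothing in the labels says that the 2 libraries of a group came from separate mice. The paper's legend for its RNA-seq volcano plots names 2 biological replicates, without defining them. If the libraries of a group share a source, the p-values measure technical spread alone. Replicate libraries correlated across genes with r of 0.991 to 0.993, and none were identical. Summed FPKM was 564078 to 596407 in M-MDSC libraries and 656932 to 860841 in PMN-MDSC libraries, and the depth in reads is unknown. S100a8 and S100a9, the neutrophil calprotectin genes, took 10.2% to 13.7% of the summed FPKM in vehicle PMN-MDSCs and 27.3% to 30.9% in treated ones. The defining PMN-MDSC markers S100a8, S100a9, Csf3r and Cxcr2, summed with Itgam, reached at least 68040 FPKM in PMN-MDSC libraries and at most 25030 in M-MDSC libraries, while Ly6g was not analysed here. The sum of the M-MDSC markers Itgam, Ly6c2, Ccr2, Csf1r and Cx3cr1 was 1848 to 1915 FPKM in vehicle M-MDSCs against 1533 to 1538 in vehicle PMN-MDSCs, and it overlapped between the subsets once treated libraries were pooled. Of these markers, only Ccr2 was higher in every M-MDSC library (124 to 147 FPKM) than in every PMN-MDSC library (27.5 to 40.7). Itgam, which both marker lists hold, went the other way, at 257 to 285 FPKM against 825 to 895. Under vehicle, Csf1r (log2 fold change 0.31, not called) and Cx3cr1 (0.63, called) were also higher in PMN-MDSCs. Ly6c2 was at 1306 and 1360 FPKM in vehicle M-MDSCs, 455 and 511 in vehicle PMN-MDSCs and 1418 to 1677 in treated PMN-MDSCs. Markers of hepatocytes and liver tumor were near 0, with a summed level of at most 2.29 FPKM for 7 genes.

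**Figure D1:**
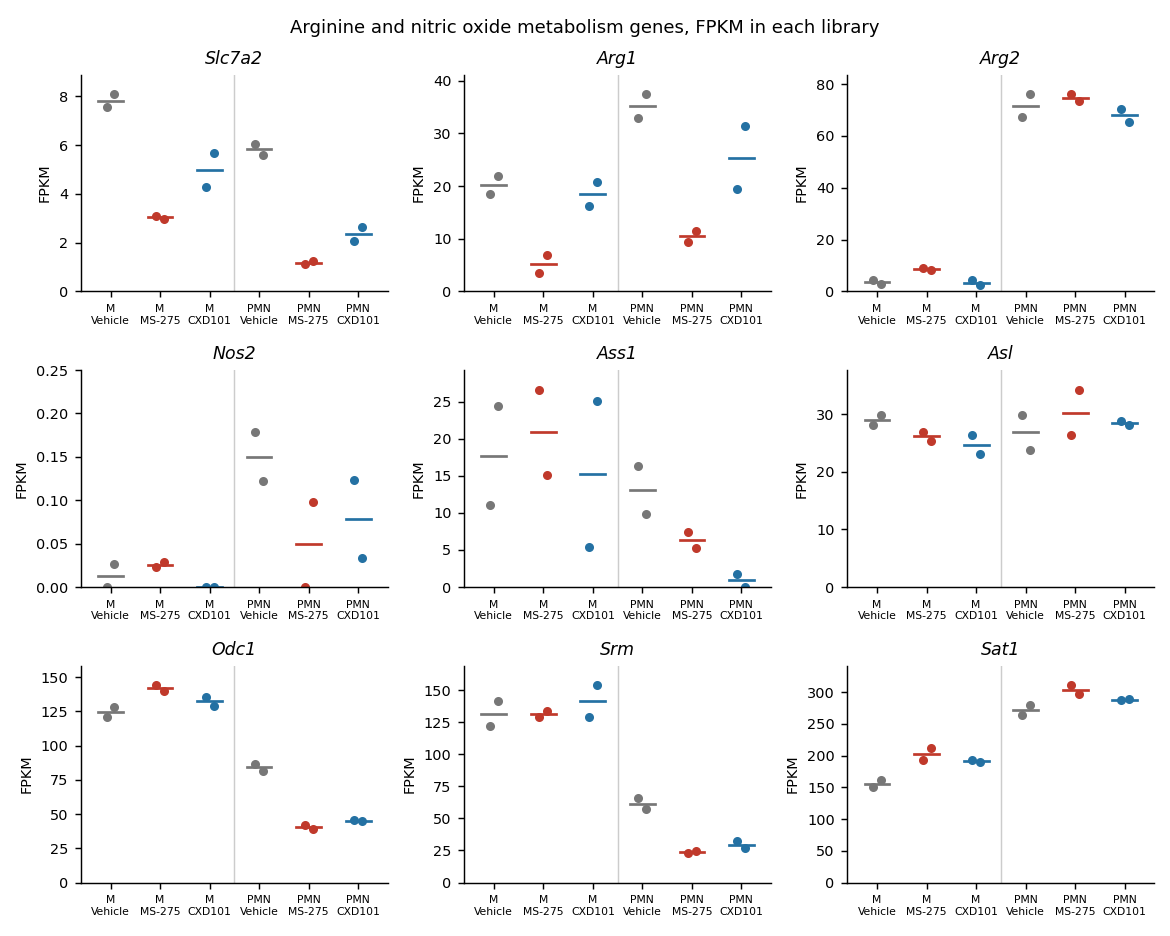
FPKM (y axis, from 0, a separate scale for each gene) of the 9 genes in the 12 libraries. Each point is a library, each short horizontal line the mean of 2 libraries, and the x axis gives the subset (M or PMN) and treatment. Slc7a2 and Arg1 were lowest under MS-275 in both subsets, Odc1 and Srm were lower under both inhibitors in PMN-MDSCs, and Nos2 stayed at or below 0.178 FPKM.

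Uptake of arginine was represented by Slc7a2 (GRCm38 chromosome 8, 40862396 to 40922308, plus strand). In M-MDSCs it was at 7.55 and 8.08 FPKM under vehicle, 3.11 and 2.97 under MS-275, and 4.28 and 5.69 under CXD101. PMN-MDSC libraries had 6.04 and 5.61 FPKM under vehicle, 1.11 and 1.25 under MS-275, and 2.08 and 2.66 under CXD101. In both subsets every treated library was below every vehicle library, and the MS-275 libraries were below the CXD101 libraries. Slc7a2 fell under MS-275 by 1.13 on the log2 scale (SE 0.131, adjusted p = 2.75e-04) in M-MDSCs, where 17.5% of all 11078 genes tested were called. Under CXD101 in M-MDSCs, where 8.13% of genes were called, its log2 fold change was -0.57 (SE 0.131, adjusted p = 0.0169), just inside the fold limit. It was called there without CXD101 replicate 2 (-0.74). In PMN-MDSCs Slc7a2 fell under MS-275 by 1.64 (SE 0.145, adjusted p = 8.02e-05) and under CXD101 by 1.02 (SE 0.145, adjusted p = 0.00108). The background shares of called genes were 28.7% and 21.4% of 11184 genes. The difference in response between the subsets was -0.52 for MS-275 (adjusted p = 0.0607) and -0.46 for CXD101 (adjusted p = 0.108), neither of which passed the threshold. The MS-275 difference was called at -0.87 (adjusted p = 0.0219) with a pseudocount of 0.1 and at -0.59 (adjusted p = 0.0393) with S100a8 and S100a9 left out of the total, and the CXD101 difference at -0.63 (adjusted p = 0.0469) without CXD101 M-MDSC replicate 1.

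Arg1 (chromosome 10, 24915221 to 24927484, minus strand) encodes the cytosolic arginase. Its level in M-MDSCs was 18.5 and 22.0 FPKM under vehicle, 3.58 and 6.92 under MS-275, and 16.2 and 20.7 under CXD101. The MS-275 libraries lay below all others of the subset, and the CXD101 libraries overlapped the vehicle libraries. In PMN-MDSCs Arg1 was at 33.0 and 37.4 FPKM under vehicle, 9.44 and 11.5 under MS-275, and 19.4 and 31.4 under CXD101, without overlap between the groups but with a wide gap between the 2 CXD101 libraries. Arg1 fell under MS-275 by 1.81 on the log2 scale (SE 0.232, adjusted p = 4.52e-04) in M-MDSCs and by 1.66 (SE 0.203, adjusted p = 3.62e-04) in PMN-MDSCs. The difference between these responses was 0.15 (95% confidence interval -0.66 to 0.96, adjusted p = 0.791). With CXD101 Arg1 stood at a log2 fold change of -0.13 in M-MDSCs (95% confidence interval -0.66 to 0.40, adjusted p = 0.722) and -0.49 in PMN-MDSCs (-0.96 to -0.02, adjusted p = 0.0820). The latter was -0.83 and called (adjusted p = 0.00851) without CXD101 PMN-MDSC replicate 2. By group mean, Arg1 was highest in vehicle PMN-MDSCs (35.2 FPKM), followed by CXD101 PMN-MDSCs (25.4), vehicle M-MDSCs (20.2), CXD101 M-MDSCs (18.5), MS-275 PMN-MDSCs (10.5) and MS-275 M-MDSCs (5.25). Neighbors in the middle of that order overlapped: CXD101 PMN-MDSCs with vehicle M-MDSCs, and vehicle with CXD101 M-MDSCs.

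Arg2 (chromosome 12, 79130777 to 79156301, plus strand), the mitochondrial arginase, followed another pattern. In M-MDSCs it was at 4.39 and 3.02 FPKM under vehicle, 9.08 and 8.43 under MS-275, and 4.24 and 2.37 under CXD101. The MS-275 libraries exceeded all other M-MDSC libraries. PMN-MDSC levels were 67.5 and 76.0 FPKM under vehicle, 76.1 and 73.6 under MS-275, and 70.5 and 65.4 under CXD101, and the groups overlapped. Arg2 rose under MS-275 in M-MDSCs, with a log2 fold change of 1.07 (SE 0.213, adjusted p = 0.00416), while in PMN-MDSCs the value was 0.06 (95% confidence interval -0.12 to 0.25). The difference in response to MS-275 was -1.00 (SE 0.260, adjusted p = 0.0147), in a comparison where 18.1% of 11662 genes were called. It was -0.79 (adjusted p = 0.0548) without vehicle M-MDSC replicate 2. Arg2 was far higher in PMN-MDSCs, and some markers of that subset rose in M-MDSCs under MS-275. Cxcr2, Csf3r, S100a8 and S100a9 were called higher there, by 2.42, 1.27, 0.96 and 1.16, while Itgam was at -0.14, not called. The chemokine receptor gene Cxcr2 was at 2.81 and 3.11 FPKM in vehicle M-MDSCs, 20.8 and 19.7 with MS-275, and 8.01 and 7.75 with CXD101. The receptor gene Csf3r was at 8.75 and 10.5 FPKM, 24.29 and 24.87, and 21.02 and 20.55 in the same groups. Their part in the Arg2 value was not tested. CXD101 gave a log2 fold change of -0.15 for the M-MDSC libraries and -0.08 for the PMN-MDSC libraries, with 95% confidence intervals of -0.64 to 0.34 and -0.26 to 0.11. Exons of Arg2 overlap, on the other strand, exons of Vti1b, a vesicle fusion gene listed at 40.3 to 62.8 FPKM. The kit keeps strand, but whether the fragments were assigned by strand is not given in the sources used here.

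Under vehicle, PMN-MDSCs held more of both arginase transcripts than M-MDSCs. Arg2 was 15.6-fold higher on the FPKM + 1 scale (log2 fold change 3.96, SE 0.184, adjusted p = 3.12e-08), with group means of 71.7 against 3.71 FPKM. Arg1 was 1.71-fold higher on that scale (0.77, SE 0.260, adjusted p = 0.0236). In this comparison 34.0% of 11662 genes were called. The Arg1 call was lost without vehicle M-MDSC replicate 1 (0.65, adjusted p = 0.118) or vehicle PMN-MDSC replicate 2 (0.68, adjusted p = 0.106). Within a library, the ratio of Arg2 to Arg1 FPKM was 0.237 and 0.138 in vehicle M-MDSCs, 2.53 and 1.22 with MS-275, and 0.261 and 0.114 with CXD101. Arg1 was thus the more abundant arginase transcript in vehicle and CXD101 M-MDSCs and Arg2 in MS-275 M-MDSCs. In PMN-MDSCs Arg2 led in every library, with ratios of 2.04 and 2.03 under vehicle, 8.06 and 6.41 under MS-275, and 3.63 and 2.08 under CXD101. These ratios were not tested.

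**Figure D2:**
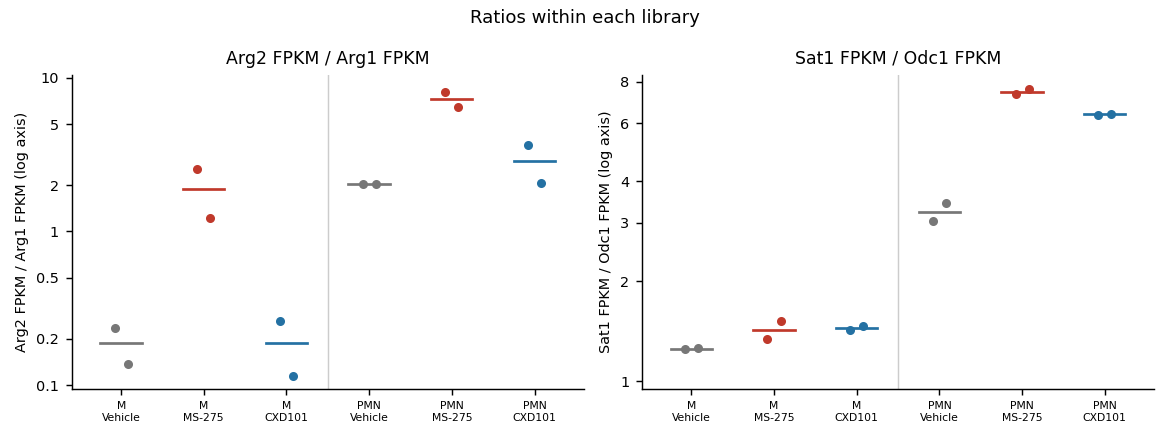
Ratio of Arg2 to Arg1 FPKM (left) and of Sat1 to Odc1 FPKM (right) within each library, both on log axes. Points are libraries, short horizontal lines are means of 2 libraries, and the x axis gives subset and treatment. Arg2 exceeded Arg1 in both MS-275 M-MDSC libraries, at 2.53 and 1.22, and the Sat1 to Odc1 ratio was above 6 in all 4 treated PMN-MDSC libraries.

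Markers of macrophages, which can express Arg1 and Slc7a2, also changed under the inhibitors. The summed FPKM of Adgre1, C1qa, C1qb, C1qc, Mrc1 and Mertk was 146.6 to 148 in vehicle, 70.2 to 77.1 in MS-275 and 117.6 to 134 in CXD101 M-MDSCs. In PMN-MDSCs it was 174.5 to 186.4 under vehicle, 83.3 to 92.3 under MS-275 and 93.7 to 99.1 under CXD101. No macrophage marker was at 0 in a whole group. Mrc1, the mannose receptor, was at 79.9 and 81.3 FPKM in vehicle M-MDSCs, 16.4 and 13.5 with MS-275, and 65.0 and 77.4 with CXD101. Of the 6 markers, 5 fell under MS-275 in both subsets, while Adgre1 had log2 fold changes of 0.47 in M-MDSCs and -0.07 in PMN-MDSCs and was not called. Eosinophil markers (Prg2, Epx, Siglecf and Il5ra) summed to 10.1 to 14.7 FPKM in vehicle M-MDSCs, 143.7 to 163.3 with MS-275 and 112.4 to 122.9 with CXD101. In PMN-MDSCs they summed to 62.6 to 66.0 FPKM under vehicle, with 1 of the 4 at 0, and to 47.3 to 61.1 in treated libraries. The part of other cells in the Slc7a2, Arg1 and Arg2 values was not tested, and fewer cells of a type cannot be told apart from less RNA per cell in such bulk libraries.

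Nos2 (chromosome 11, 78920787 to 78960254, plus strand) was barely detected. In M-MDSCs it was listed at 0 and 0.0262 FPKM under vehicle, 0.0228 and 0.0288 under MS-275, and at 0 in both CXD101 libraries. In PMN-MDSCs it was listed at 0.178 and 0.122 FPKM under vehicle, 0 and 0.0982 under MS-275, and 0.123 and 0.0339 under CXD101. It failed the filter of at least 1 FPKM in at least 2 libraries in all 3 models and was not tested, so 8 of the 9 genes were tested. The neuronal and endothelial synthases Nos1 and Nos3 were likewise at or below 0.0307 and 0.167 FPKM in every library. None of the 5 genes fixed for nitric oxide sensing (the soluble guanylate cyclase subunits Gucy1a3, Gucy1a2 and Gucy1b3, with Pde5a and Prkg1) passed the filter in any model. At such levels a difference in nitric oxide synthase transcripts was not detectable.

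Citrulline recycling needs Ass1 (chromosome 2, 31470207 to 31520672, plus strand) and Asl (chromosome 5, 130011258 to 130029247, minus strand). Asl, which releases arginine from argininosuccinate, stayed between 23.0 and 34.2 FPKM in all 12 libraries and was called in none of the 9 comparisons. Ass1 makes argininosuccinate, and its values scattered between replicates. It was at 11.1 and 24.4 FPKM in vehicle M-MDSCs, 26.6 and 15.1 with MS-275 and 5.38 and 25.2 with CXD101, so the groups overlapped. In PMN-MDSCs it was at 16.3 and 9.88 FPKM under vehicle, 7.39 and 5.25 under MS-275, and 1.78 and 3.30e-04 under CXD101. Among the comparisons with vehicle, Ass1 as listed was called in 1, falling by 3.04 (SE 0.442, adjusted p = 0.00119) under CXD101 in PMN-MDSCs. With MS-275 the log2 fold change was -0.92 there (SE 0.442, adjusted p = 0.114). That value was called with only the 4 libraries compared (adjusted p = 0.0182) and without CXD101 PMN-MDSC replicate 1 (0.0204) or replicate 2 (0.0197).

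A processed pseudogene of Ass1, Gm5424 (chromosome 10, 62071123 to 62072362, plus strand), carried most of this signal. Its transcript matches the 1239 bases of the Ass1 coding sequence with 6 mismatches and no gap (99.5% identity). Of the 1139 windows of 101 bases, the length of the reads, 618 (54.3%) hold no difference, and no window holds more than 2. The pair of sequences below is shown because it is a window with the most differences. Bases 329 to 429 of the Ass1 coding sequence, and the same bases of Gm5424, are given 5′ to 3′ from GENCODE M21 (GRCm38) with the differing bases in capitals.
Ass1: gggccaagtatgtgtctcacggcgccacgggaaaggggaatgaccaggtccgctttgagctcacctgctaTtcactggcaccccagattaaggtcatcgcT
Gm5424: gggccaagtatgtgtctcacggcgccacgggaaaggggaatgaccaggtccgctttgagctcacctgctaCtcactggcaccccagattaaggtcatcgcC
Gm5424 was listed at 143.7 and 135.4 FPKM in vehicle M-MDSCs, and Ass1 took between 0.00153% and 43.0% of the sum of both genes across the libraries. How reads were divided between the copies is not given in the sources used here, and the split between the copies is uncertain.

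The sum of Ass1 and Gm5424 FPKM varied far less between replicates. This sum was chosen after the values were seen, and it adds FPKM of transcripts of unequal length. It was 154.8 and 159.8 in vehicle M-MDSCs, 89.1 and 93.0 with MS-275 and 104.6 and 114.5 with CXD101. In PMN-MDSCs it was 77.8 and 63.9 under vehicle, 17.2 and 18.2 under MS-275 and 25.6 and 21.6 under CXD101. Treated libraries were below vehicle libraries in both subsets, and MS-275 libraries below CXD101 libraries. The sum fell under MS-275 by 0.78 (SE 0.0634, adjusted p = 4.33e-05) in M-MDSCs, against a log2 fold change of 0.27 (SE 0.603) for Ass1 as listed. In PMN-MDSCs it fell by 1.93 (SE 0.118, adjusted p = 1.47e-05) under MS-275 and by 1.55 (SE 0.118, adjusted p = 6.52e-05) under CXD101. The CXD101 value in M-MDSCs was -0.52 (SE 0.0634, adjusted p = 9.86e-04), below the fold limit. The difference in response between the subsets was -1.15 for MS-275 (adjusted p = 2.69e-04) and -1.03 for CXD101 (adjusted p = 7.28e-04).

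**Figure D3:**
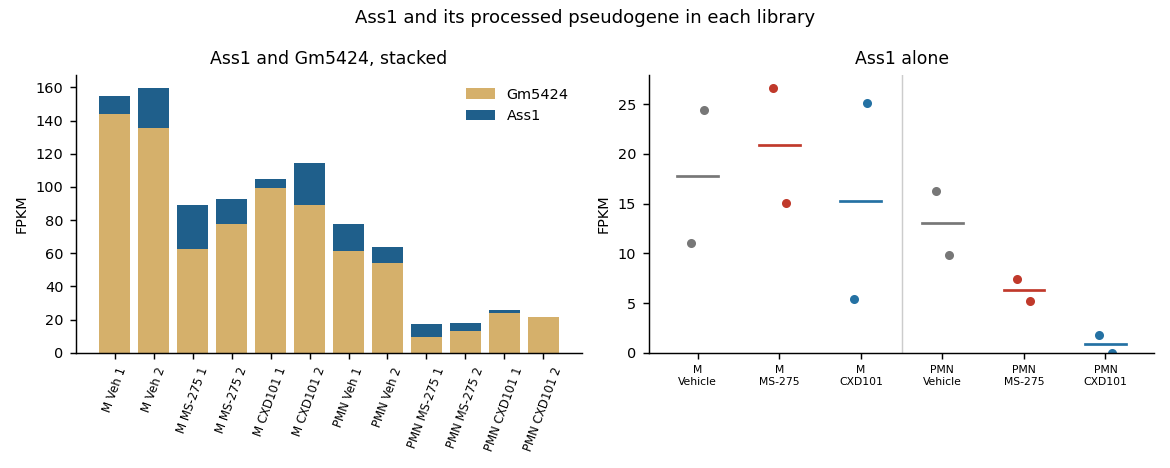
Left, FPKM of Gm5424 and Ass1 stacked for each of the 12 libraries (bars from 0). Right, FPKM of Ass1 alone, with points for libraries and short horizontal lines for means of 2. The stacked height was alike in replicates, 154.8 and 159.8 in vehicle M-MDSCs, while Ass1 alone ranged from 5.38 to 25.2 within the CXD101 M-MDSC group.

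The polyamine genes Odc1 and Srm responded differently in the subsets. Odc1 (chromosome 12, 17544794 to 17551505, plus strand) was at 121 and 128 FPKM in vehicle M-MDSCs, 144 and 139 with MS-275, and 135 and 129 with CXD101. Levels in PMN-MDSCs were 86.8 and 81.4 FPKM under vehicle, 42.3 and 39.1 under MS-275, and 45.3 and 45.2 under CXD101. All treated libraries were thus above the vehicle libraries in M-MDSCs and below them in PMN-MDSCs. Odc1 fell in PMN-MDSCs by 1.03 (SE 0.0722, adjusted p = 2.82e-05) under MS-275 and by 0.88 (SE 0.0722, adjusted p = 9.44e-05) under CXD101. The M-MDSC values were 0.19 for MS-275 (adjusted p = 0.0293) and 0.09 for CXD101 (adjusted p = 0.305), both far inside the fold limit. The responses differed between the subsets by -1.22 for MS-275 (SE 0.0874, adjusted p = 1.24e-05) and by -0.97 for CXD101 (SE 0.0874, adjusted p = 7.64e-05), where 18.1% and 13.9% of genes were called. Odc1 has 8 near-identical transcripts of other genes (at least 95% identity over at least 100 bases), of which the 2 listed in the files, AW146154 and Gm15645, reached at most 5.02 FPKM.

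Srm (chromosome 4, 148591503 to 148594993, plus strand) moved with Odc1 in PMN-MDSCs. It was at 65.9 and 57.0 FPKM under vehicle, 22.9 and 24.3 under MS-275, and 32.0 and 26.9 under CXD101. It fell by 1.34 (SE 0.108, adjusted p = 5.45e-05) and by 1.04 (SE 0.108, adjusted p = 2.68e-04), and no treated library reached a vehicle library. In M-MDSCs Srm was at 122 and 141 FPKM under vehicle, 129 and 134 under MS-275, and 129 and 154 under CXD101, and the groups overlapped. Its response differed between the subsets by -1.34 for MS-275 (adjusted p = 2.12e-04) and -1.14 for CXD101 (adjusted p = 7.73e-04). M-MDSC markers also changed in PMN-MDSCs. Under MS-275 and CXD101 the log2 fold changes there were -1.28 and -1.07 for Csf1r and -0.89 and -0.82 for Cx3cr1, all called. Ccr2 was at -0.35 and -0.44 and Itgam at 0.00 and 0.02, not called, while Ly6c2 rose by 1.71 and 1.65. The part of other cells in the Odc1 and Srm values was not tested. Under vehicle, Srm was lower in PMN-MDSCs than in M-MDSCs, by a log2 fold change of -1.08 (SE 0.113, adjusted p = 1.12e-05). The same comparison gave -0.56 for Odc1 (SE 0.0618, adjusted p = 1.81e-05), just inside the fold limit, and -0.60 and called without vehicle M-MDSC replicate 1 or without vehicle PMN-MDSC replicate 1.

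Sat1 (chromosome X, 155213132 to 155216449, minus strand), which starts polyamine breakdown, was the most abundant of the 9 transcripts in every library. It was at 151 and 161 FPKM in vehicle M-MDSCs, 193 and 211 with MS-275, and 193 and 190 with CXD101. In PMN-MDSCs it was at 264 and 279 FPKM under vehicle, 311 and 296 under MS-275, and 287 and 289 under CXD101. Every treated library exceeded the vehicle libraries of its subset, by small margins. The log2 fold changes in M-MDSCs, 0.37 (SE 0.0644, adjusted p = 0.00210) for MS-275 and 0.30 (SE 0.0644, adjusted p = 0.0131) for CXD101, passed the p-value limit but not the fold limit. Those in PMN-MDSCs were 0.16 (adjusted p = 0.0526) and 0.09 (adjusted p = 0.270). Vehicle PMN-MDSCs held 1.74-fold more Sat1 than vehicle M-MDSCs (log2 fold change 0.80, SE 0.0612, adjusted p = 1.20e-06). The ratio of Sat1 to Odc1 FPKM within a library was 1.25 to 1.51 in M-MDSCs, 3.04 and 3.43 in vehicle PMN-MDSCs, 7.34 and 7.59 with MS-275, and 6.34 and 6.40 with CXD101.

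The sequence upstream of Odc1 and Sat1, the ends of polyamine synthesis and breakdown, is shown because in PMN-MDSCs Odc1 fell under both inhibitors and Sat1 was not called under either. RefSeq promoter windows (GRCm38.p6) matched 3 of the 9 genes, Odc1, Sat1 and Ass1. The printed bases end before the first annotated base of the gene in GENCODE M21, and capitals mark matches to GGGCGG, the GC box, on either strand. The Odc1 window is chr12:17544623-17544793 on the plus strand, and the Sat1 window is chrX:155216450-155216699, read on the minus strand.
Odc1: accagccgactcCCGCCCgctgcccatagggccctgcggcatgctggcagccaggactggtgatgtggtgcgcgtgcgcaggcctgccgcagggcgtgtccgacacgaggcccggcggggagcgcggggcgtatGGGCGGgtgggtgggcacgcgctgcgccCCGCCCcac
Sat1: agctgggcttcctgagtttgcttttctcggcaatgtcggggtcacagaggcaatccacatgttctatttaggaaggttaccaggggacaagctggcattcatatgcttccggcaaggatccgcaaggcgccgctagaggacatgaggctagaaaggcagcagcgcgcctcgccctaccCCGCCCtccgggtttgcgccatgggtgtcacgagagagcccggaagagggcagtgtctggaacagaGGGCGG
The Odc1 window held 3 GC boxes and the Sat1 window 2. Windows of the same lengths held at least 1 in 19.6% and 32.7% of all 32851 promoters. Both strands were also searched for the TATA box (TATAAA), the E-box (CACGTG), the AP-1 site (TGANTCA), the cyclic AMP element (TGACGTCA), the interferon gamma site (TTCNNNGAA), the C/EBP site (TTGCGCAA), the hypoxia core (ACGTG, which lies within every E-box so defined) and the NF-kappaB consensus. None of these had a match in the printed windows, and the Ass1 window of 187 bases held no match to any of the 9 motifs. In windows of 171 bases, the length for Odc1, the share of all promoters with a match was 0.107% for the C/EBP site and 10.6% for the hypoxia core, with the other searched motifs between them.

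**Figure D4:**
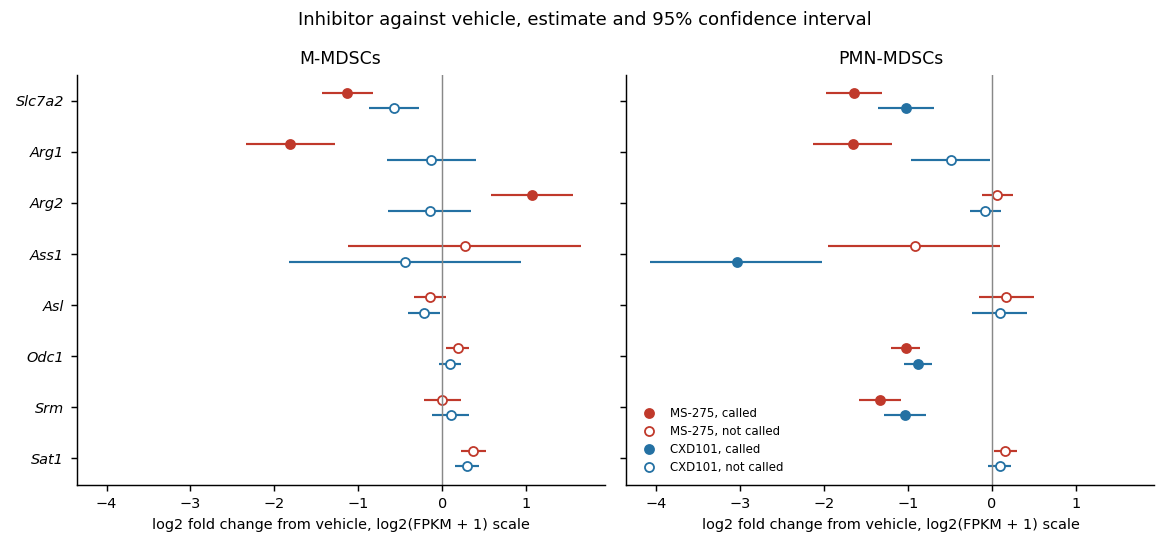
Log2 fold change from vehicle on the log2(FPKM + 1) scale (x axis) of the 8 tested genes in M-MDSCs (left) and PMN-MDSCs (right). Points are limma estimates (filled where called, open where not), lines are 95% confidence intervals, red is MS-275 and blue is CXD101. In M-MDSCs only Slc7a2, Arg1 and Arg2 were called, all under MS-275, while in PMN-MDSCs Slc7a2, Odc1 and Srm were called under both inhibitors.

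Counted over the 8 tested genes, MS-275 in M-MDSCs lowered Arg1 and Slc7a2 and raised Arg2, and 5 were not called. CXD101 in M-MDSCs gave 0 calls among the 8 by limma, with 3 at an unadjusted p under 0.05 (Slc7a2, Sat1 and Asl). In PMN-MDSCs MS-275 lowered Arg1, Slc7a2, Odc1 and Srm, and CXD101 lowered Slc7a2, Odc1, Srm and Ass1 as listed. None of the 8 was called higher there. The shares called were 37.5%, 0%, 50% and 50% of the 8, against 17.5%, 8.13%, 28.7% and 21.4% of all genes tested. The median log2 fold change of the 8 was 0.10 and -0.14 in M-MDSCs under MS-275 and CXD101, and -0.98 and -0.69 in PMN-MDSCs. Over all genes tested these medians were -0.06, -0.02, -0.03 and -0.03. The comparisons of each inhibitor with vehicle share the vehicle libraries.

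MS-275 and CXD101 were compared directly at the same dose, once in each subset. In M-MDSCs, where 4.40% of genes were called, Arg1 was lower with MS-275 (log2 fold change -1.68, SE 0.232, adjusted p = 0.00413) and Arg2 was higher (1.21, SE 0.213, adjusted p = 0.0102). Slc7a2 was at -0.56 (SE 0.131, adjusted p = 0.0281), just inside the fold limit, and was called at -0.73 without CXD101 M-MDSC replicate 1. For the other tested genes the interval of the difference was -0.68 to 2.09 for Ass1, -0.11 to 0.27 for Asl, -0.04 to 0.23 for Odc1, -0.32 to 0.12 for Srm and -0.07 to 0.22 for Sat1. In PMN-MDSCs, where 0.805% of genes were called, Arg1 was lower with MS-275 (-1.17, SE 0.203, adjusted p = 0.0497), at the edge of the threshold. Leaving out either MS-275 PMN-MDSC library or CXD101 PMN-MDSC replicate 2 ended that call, with log2 fold changes of -1.04, -1.30 and -0.84 and adjusted p-values of 0.216, 0.130 and 0.155. The intervals there were -0.96 to -0.28 for Slc7a2 (adjusted p = 0.105), -0.05 to 0.32 for Arg2, -0.25 to 0.41 for Asl, -0.32 to 0.02 for Odc1, -0.55 to -0.05 for Srm (adjusted p = 0.245) and -0.06 to 0.21 for Sat1. Ass1 as listed was 2.12 higher with MS-275 (1.09 to 3.15, adjusted p = 0.0785), while the sum with Gm5424 was at -0.39 (-0.66 to -0.11, adjusted p = 0.189).

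Other genes around these steps were taken from 8 lists with 73 symbols, of which 72 had a row. In M-MDSCs, MS-275 raised 8 and lowered 5 of the 56 tested (median log2 fold change -0.03), and CXD101 raised 4 and lowered 3 (median -0.07). That is 23.2% and 12.5% of the list genes, against 17.5% and 8.13% of all genes tested. The polyamine oxidase Paox was at 6.88 and 8.67 FPKM under vehicle, 20.7 and 21.9 under MS-275, and 15.3 and 16.6 under CXD101. It rose by 1.35 (adjusted p = 4.16e-05) and 0.96 (adjusted p = 7.32e-04) on the log2 scale. Gatm, which draws on arginine for the first step of creatine synthesis, rose by 1.18 (adjusted p = 6.95e-06) and 0.89 (adjusted p = 9.56e-05). Under MS-275 the brain-type creatine kinase Ckb rose by 1.47 (adjusted p = 1.68e-04) and Sat2, a relative of Sat1, by 1.14 (adjusted p = 6.87e-04), though Sat2 did not exceed 2.08 FPKM. The guanidinoacetate methyltransferase Gamt fell by 0.91, the endotoxin receptor Tlr4 by 0.90, the biopterin enzyme Spr by 0.88 and the interferon gamma receptor chain Ifngr2 by 0.72. CXD101 also raised the proline dehydrogenase Prodh by 0.82 and the biopterin enzyme Pts by 0.62, and lowered Tlr4 by 0.87, the receptor Il13ra1 by 0.73 and the cytokine Il1b by 0.69. MS-275 likewise raised Prodh by 1.02 (adjusted p = 1.07e-04) and Pts by 0.92 (adjusted p = 2.37e-04). Il13ra1 (-0.15) and Il1b (-0.35) were not called under MS-275. The transcription factor gene Myc is on the list of signals known to induce Arg1, Nos2 or Odc1. It rose in M-MDSCs under MS-275 by 0.97 (adjusted p = 2.86e-05), with 0.48 under CXD101, not called. In PMN-MDSCs Myc was at 0.47 under MS-275 and 0.25 under CXD101, not called. These MS-275 values and all those of Myc lie outside the naming rule. The Il1b call was at an adjusted p of 0.0426 and was lost in each of the 4 fits that left out a vehicle or CXD101 M-MDSC library. The Pts call under CXD101 was lost without vehicle replicate 1 (0.49) or CXD101 replicate 2 (0.51).

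In PMN-MDSCs, MS-275 raised 3 and lowered 11 of the 54 list genes tested (median -0.09), and CXD101 raised 3 and lowered 8 (median -0.13). These shares, 25.9% and 20.4%, were near the 28.7% and 21.4% of all genes tested. The antizyme gene Oaz2, whose product restrains ornithine decarboxylase, rose by 0.82 (adjusted p = 2.64e-04) under MS-275 and 0.73 (adjusted p = 6.47e-04) under CXD101. Oaz2 also rose in M-MDSCs under MS-275, by 0.77 (adjusted p = 1.21e-04), with 0.41 under CXD101, not called. The difference in its MS-275 response between the subsets was 0.05 (adjusted p = 0.803). These further Oaz2 values were chosen after they were seen. Paox rose in PMN-MDSCs by 1.07 and 1.16, the spermine oxidase Smox by 0.69 under MS-275, and the nuclear receptor gene Pparg by 0.66 under CXD101. Among 10 tested genes of polyamine synthesis and use, MS-275 lowered 5 and raised 2, and CXD101 lowered 3 and raised 1. Those lowered by MS-275 were the methylthioadenosine phosphorylase Mtap (by 1.11), the spermine synthase Sms (by 1.07), Dhps (by 0.85) and Dohh (by 0.87), which modify the factor eIF5A, and the polyamine transporter Atp13a2 (by 0.88). CXD101 lowered Mtap by 0.98, Sms by 0.84 and Atp13a2 by 0.67. Atp13a2 was also called lower in M-MDSCs under MS-275, by 0.71 (adjusted p = 0.00120), with -0.43 under CXD101, not called. Sms, Dhps, Dohh and Atp13a2 were picked with their values in view. The biopterin enzymes Spr and Qdpr fell in PMN-MDSCs by 1.48 and 1.22 under MS-275 and by 1.39 and 0.99 under CXD101. Ckb, at 15.5 and 13.6 FPKM under vehicle, fell to 5.33 and 6.61 with MS-275 and to 3.93 and 5.33 with CXD101. The general arginine transporter Slc7a1, chosen after its values were seen, fell in PMN-MDSCs by 0.83 and 0.69. In M-MDSCs, where it was at 27.8 and 27.4 FPKM under vehicle, it had log2 fold changes of -0.12 and -0.07, not called. Its response differed between the subsets by -0.71 for MS-275 and -0.61 for CXD101, both called. The other list genes lowered in PMN-MDSCs were the ornithine aminotransferase Oat, by 0.93 and 0.76, and under MS-275 the transcription factor gene Irf8, by 1.03. Both were likewise outside the naming rule. Azin2, which encodes an antizyme inhibitor, was listed under its older symbol Adc and stands outside these counts. It was at 0.179 and 0.246 FPKM in vehicle PMN-MDSCs, 4.202 and 4.51 with MS-275, and 2.688 and 2.999 with CXD101. In M-MDSCs it was at 0.101 and 0.264 FPKM under vehicle, 1.89 and 3.07 under MS-275, and 0.733 and 0.492 under CXD101. Azin2 rose in PMN-MDSCs by 2.14 (adjusted p = 2.24e-05) under MS-275 and 1.66 (adjusted p = 1.13e-04) under CXD101, and in M-MDSCs by 1.54 (adjusted p = 5.05e-04) under MS-275, with 0.45 (adjusted p = 0.148) under CXD101. The S-adenosylmethionine decarboxylase copies Amd1 and Amd2, listed at most at 0.0685 and at least at 19.6 FPKM, are near-identical and their split is uncertain.

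The urea cycle genes Cps1 and Otc were listed at 0 in every library. Of all 56 list genes tested, 13 were higher and 19 lower in vehicle PMN-MDSCs than in vehicle M-MDSCs, which is 57.1% against 34.0% of all genes tested. Of the 20 signals listed as known inducers of Arg1, Nos2 or Odc1, 10 were higher and 2 lower in that comparison, with a median of 0.59. Over all genes tested in that comparison the median was -0.01.

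The genes whose log2(FPKM + 1) followed a member most closely over the 12 libraries are given as a description. All libraries enter such a value together, so it mostly reflects subset and treatment. For Arg1 they were Parvg (Pearson r = 0.942), Wdfy2 (0.930) and Pank4 (0.915). For Odc1 they were Ddx27, Mdn1 and Nsun2 (each 0.995), and for Sat1 Pts (0.991), Siglece (0.988) and Arap3 (0.985). Those for Nos2, namely Anks1 (0.895), Phc2 (0.887) and Gm21975 (0.881), rest on Nos2 values near 0.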

How the data were processed

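RNA-seq (TruSeq stranded mRNA, 101-base single-end) was available for 12 libraries, 2 in each of 6 groups taken from the sample titles. The authors deposited 1 table of FPKM values per library, scaled by them to library and gene length. The submitters' processing notes name TopHat2 2.1.1, Bowtie2 2.2.8, SAMtools 0.1.18, Cuffdiff 2.2.1 and mm10; the annotation is not given in the sources used here. Positions come from GENCODE M21 (GRCm38).

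FPKM values are not counts, so limma 3.58.1 in R 4.3.3 was fitted to log2(FPKM + 1) with an intensity trend, over genes with at least 1 FPKM in at least 2 libraries, with Benjamini-Hochberg adjustment across every gene tested. The libraries of a subset shared a model, and comparisons between subsets used all 12. Thresholds followed the study's methods. The test was checked on simulated data. Near-identical transcripts were searched with BLAST+ 2.17.0+ and sequences handled in Python 3.11.15.

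The 9 genes and the gene lists were chosen with earlier results of these data known. All 9 genes were named; of the list genes, at most the 4 largest called increases and decreases per inhibitor comparison, and for Arg1, Nos2, Odc1 and Sat1 the 3 most alike genes. Other list genes are named as chosen after their values were seen. Adc was matched to Azin2 as its older symbol in the RefSeq gene table after the list counts were made, and Ly6g was not analysed here. The vehicle comparison of the list for the urea cycle and mitochondrial ornithine is not reported here. Alternatives were another pseudocount, filter, scaling, trend, fold limit or model, the replicate block and leaving out libraries.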

Additional observations from a re-analysis of the deposited data

Results flagged for a closer look

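For the genes below, the response to an inhibitor differed between PMN-MDSCs and M-MDSCs by the interaction test in limma over all 12 libraries. Only the tested members and the list genes named by rule for the same inhibitor were considered. The list genes had been picked for large called changes within a subset in these same libraries, which favors a called difference in this test. Over all 11662 genes tested, 18.1% were called for the difference in MS-275 response and 13.9% for that in CXD101 response. The values are the log2 fold change in PMN-MDSCs minus that in M-MDSCs. For MS-275 they were -1.00 for Arg2, -1.22 for Odc1 and -1.34 for Srm. Among the list genes they were -2.63 for Ckb, -0.89 for Gatm, -1.11 for Sat2, -0.96 for Qdpr and -0.78 for Mtap, and 0.77 for Tlr4 and 0.63 for Ifngr2. For CXD101 they were -0.97 for Odc1 and -1.14 for Srm, and among the list genes -1.76 for Ckb, -0.91 for Gatm, -0.94 for Prodh, -1.07 for Spr, -0.85 for Qdpr and -0.80 for Mtap, with 0.62 for Tlr4 and 0.67 for Il13ra1. Adjusted p-values ranged from 1.24e-05 for Odc1 to 0.0299 for Sat2, both for MS-275. Sat2 failed the filter in the PMN-MDSC model, at 0 and 0.510 FPKM under vehicle and 0.577 and 0 under MS-275. Its difference therefore reflects the M-MDSC rise and cannot show how PMN-MDSCs responded. Ckb moved in opposite directions in the subsets under MS-275, rising by 1.47 in M-MDSCs and falling by 1.16 in PMN-MDSCs. The share of summed FPKM taken by S100a8 and S100a9 was 1.78% to 1.95% in vehicle and 3.58% to 4.28% in treated M-MDSCs, against 10.2% to 13.7% and 27.3% to 30.9% in PMN-MDSCs. With both genes left out of the total, 18 of the 20 differences were still called. Those for Ifngr2 under MS-275 (0.51, adjusted p = 0.00523) and Tlr4 under CXD101 (0.58, adjusted p = 0.0181) no longer passed the fold limit. Further list genes, outside that choice, were also called in the same test with the full total. For MS-275 they included Prodh at -1.25, Irf8 at -1.08, Pparg at 0.93, the kinase gene Jak2 at 0.89 and Sms at -0.83. For CXD101 they included Jak2 at 0.95, Sms at -0.67 and the antizyme gene Oaz1 at 0.67.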

How the results depend on the processing

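Over 72 values of the 8 tested genes, 1328 values under other settings were computed. Of these, 1288 kept direction and side of the threshold, 12 lost a call, 28 gained one and 0 reversed a called value, while 25 uncalled values changed sign, each with a library left out. Summing Ass1 and Gm5424, chosen after the data were seen, gave 9 further values for Ass1, of which 4 gained a call and 1 reversed. Without a fold limit, 5 of the genes were called for MS-275 in M-MDSCs (Arg1, Arg2, Slc7a2, Odc1, Sat1) and 2 for CXD101 (Slc7a2, Sat1). CXD101 in M-MDSCs gave 1 call (Slc7a2) with a pseudocount of 0.1, and 0 to 1 when a library was left out. For MS-275 against CXD101 in PMN-MDSCs the single Arg1 call became 0 with a pseudocount of 0.1, without a filter, with median-of-ratios scaling, with quantile normalization, without the trend and when Ass1 and Gm5424 were summed. It became 2 with the replicate block (Arg1, Ass1) and with all 12 libraries in the model (Arg1, Slc7a2), and 0 to 2 with a library left out. The difference in CXD101 response had 2 to 4 calls with a library left out. For Ass1 under MS-275 in M-MDSCs, summing with Gm5424 turned 0.27 into a called -0.78. The cause was not tested in these cases.

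Over all genes, a filter of 5 FPKM gave 1269, 591 and 268 calls for MS-275, CXD101 and MS-275 against CXD101 in M-MDSCs, where fewer genes are tested. Without the fold limit the counts were 5144, 2560 and 1522 in M-MDSCs, 6011 and 5070 against vehicle in PMN-MDSCs, 7225 between the subsets and 3614 and 2824 for the differences in response. The 90 calls for MS-275 against CXD101 in PMN-MDSCs became 4 without a filter, 35 without the trend, 151 with all 12 libraries and 10 to 111 with a library left out. The 487 in M-MDSCs became 308 to 474. Of calls for the difference in MS-275 response, 47.7% were higher, or 33.1% when S100a8 and S100a9 were left out of the total.

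Same-numbered replicates correlated at -0.126 to 0.072 in their deviations, so the numbers were not taken as pairs. With the replicate block, Ass1 was called for MS-275 in PMN-MDSCs (-0.92, adjusted p = 0.0173), as in 3 fits on fewer libraries given beside that result. The 2 libraries per group and FPKM without read numbers limit the precision, most of all below 1 FPKM.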
